A study of Homo sapiens with 10 samples.

Results

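The genes described here are 40 interferon-stimulated genes, chosen by symbol from a list of well-known members of the interferon response. All 40 were found, each in 1 row, among the 27142 genes of an RNA-seq table from the human leukaemia cell line 697, which has the features of B-cell precursors. The comparison asked which transcripts differ in these cells after exposure to TPA (12-O-tetradecanoylphorbol-13-acetate), which activates protein kinase C. The RNA came from parental 697 cells in 2 control libraries and 2 TPA libraries, grown in the same serum-containing medium. TPA was given at 0.5 µg/ml for a time that the labels state only as a range of 0 to 24 h, and they name no vehicle and no added interferon. Of the 10 samples of the series, the other 6 were ChIP-seq and input DNA libraries and were not analysed here.

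Interferons are secreted proteins that bind receptors on the cell surface and act through JAK kinases on transcription factors of the STAT family. A complex that holds STAT2 and IRF9 binds a short DNA element, the interferon-stimulated response element (ISRE), in front of the target genes. The products of the target genes sense foreign RNA and DNA, block virus entry, translation and budding, and feed back on the pathway. In many cells several of these genes are also expressed at a low level without added interferon.

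The 4 libraries had summed values of 349438 to 388846 RPKM (reads scaled to gene length and library size) and listed 11449 to 11878 genes at 1 RPKM or more. Read totals were not given. From the steps between low values, the other libraries had 91.3% to 97.8% of the depth of control replicate 1, with the lowest share in TPA replicate 2. All 14 B-lineage markers were above 1 RPKM in both control libraries, among them CD79A and CD79B. Of 8 T-cell markers, CD3D and CD3E were listed at 0 in all 4 libraries, and of 9 myeloid markers, S100A8 and S100A9. The same held for CLEC4C and IL3RA of 5 plasmacytoid dendritic cell markers and for KLRD1 and NCR1 of 6 natural killer cell markers. IL3RA is listed on both X and Y (Xp22.33 and Yp11.2). How reads shared between such copies were counted is not given, so its 0 may not mean absence. The other genes of these lists were not at 0 throughout. NKG7 had 13.4 and 12.8 RPKM in the controls. With TPA IL2RA reached 9.55 RPKM, GZMB 8.26, PRF1 6.96, CSF1R 3.66, LILRA4 0.968 and GNLY 0.182 RPKM.

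The response of the interferon-stimulated genes to TPA was split, and much of it rested on 1 of the 2 TPA libraries. Of the 40 genes, 30 reached 1 RPKM in 2 or more libraries, and limma was fitted to log2(RPKM + 1) for all genes that did. With a threshold of 0.05 on the Benjamini-Hochberg adjusted p, 11 rose, 4 fell and 15 did not pass. That is 36.7% and 13.3% of those tested, against 28.4% rising and 29.8% falling among all 12159 genes tested. Counted in either direction, 15 of 30 passed, against 58.2% of all genes tested. The genes that rose were GBP2, IFI6, IFIT2, IFIT3, BST2, ISG20, MX2, PARP9, IFI35, DDX58 and PML, and those that fell were HERC5, IFITM3, GBP1 and EIF2AK2. The median log2 fold change of the 30 was 0.35, against -0.02 for all genes tested. GBP2 and IFIT2 passed the filter on low values only through the TPA libraries, so a difference was built into their passing. The median of the 30 was 0.026 without TPA replicate 2 and 0.62 without TPA replicate 1. Values for all genes tested in these fits are not given here. Of all genes tested, 73.1% were higher in TPA replicate 2 than in TPA replicate 1. In bulk RNA, a change in the share of cells that express a gene and a change in RNA per cell cannot be told apart. The labels do not give the origin of the replicates, so the p-values measure only the spread between these libraries, which may be technical.

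**Figure D1:**
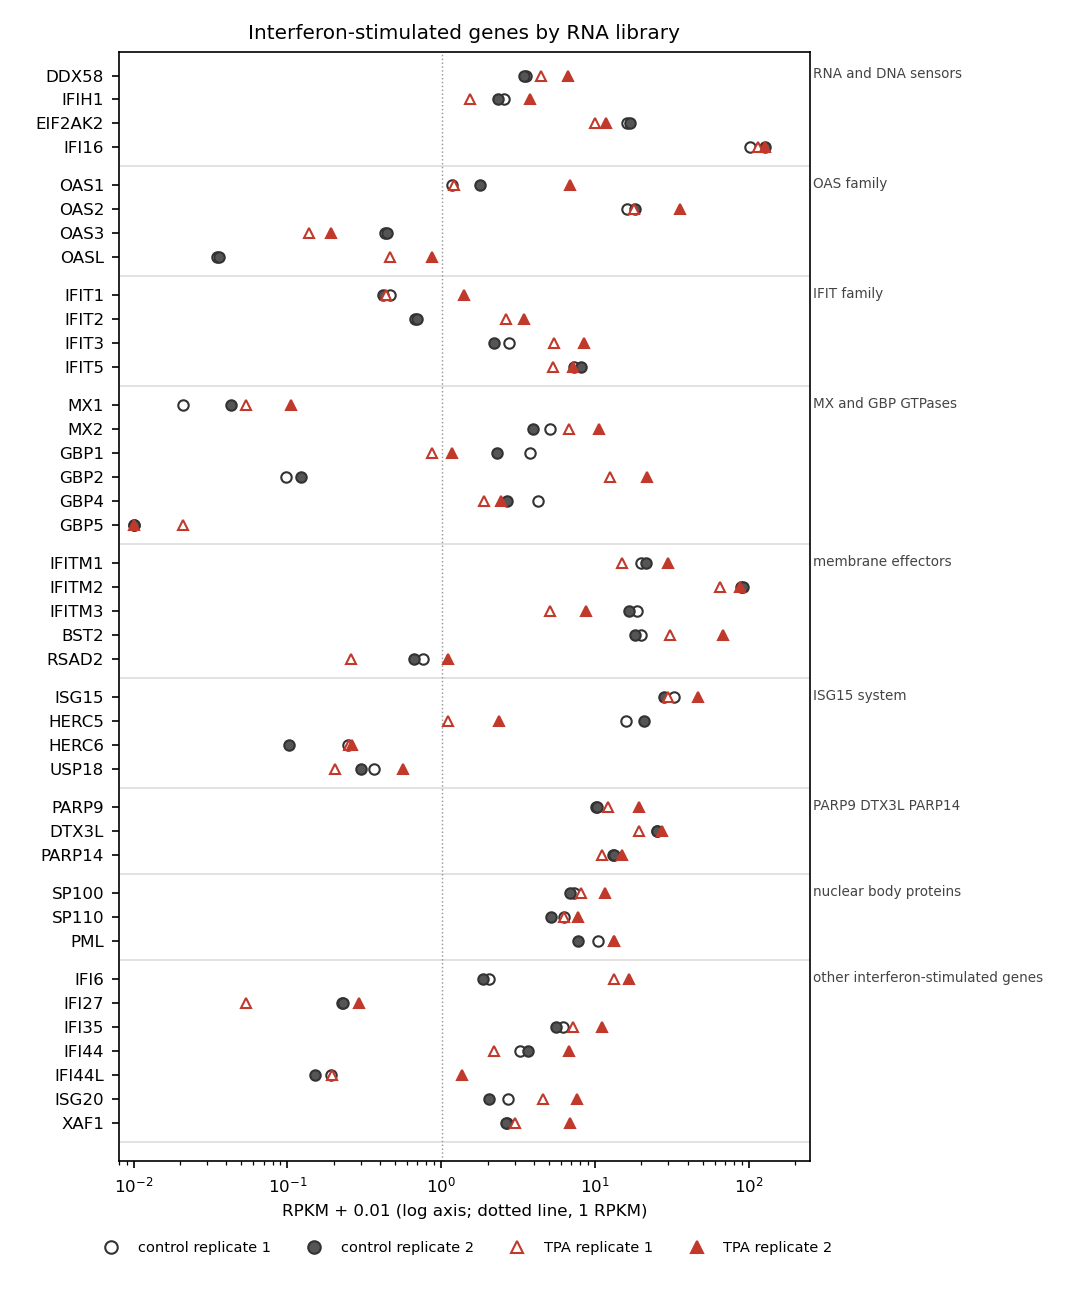
RPKM + 0.01 on a log axis for each of the 40 interferon-stimulated genes in the 2 control libraries (circles) and the 2 TPA libraries (triangles), grouped by role. Filled triangles (TPA replicate 2) lie to the right of open triangles (TPA replicate 1) for 38 of 40 genes.

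RefSeq promoter windows (GRCh38.p14, 250 bases before to 50 after each annotated start) were matched to 31 of the 40 genes by symbol, DDX58 through its current symbol RIGI. The genes not matched were OAS2, OASL, IFIT2, MX2, GBP2, GBP5, IFITM2, USP18 and PML. The ISRE core (GAAA, any 2 bases, GAAA), searched on both strands and allowed to overlap itself, was present in 23 of the 31 (74.2%), against 4.38% of all 27305 genes with a window. The longer form, with CT after the core, was in 15 of them, against 0.322% of all genes. The core of the gamma-activated site (GAS; TTC, any 3 bases, GAA), an element of the response to interferon-gamma, was in 8 (25.8%), against 9.38% of all genes. The ISRE core was in the window of 5 of 7 matched genes that rose, 4 of 4 that fell, 8 of 13 that did not pass and 6 of 7 that were too low to test. In 3 of these genes, EIF2AK2, GBP4 and DTX3L, the core spans the annotated start, so a core wholly before the start was present for 3 of 4 that fell and 6 of 13 that did not pass. A match is a description of the letters and not a measured binding site.

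**Figure D2:**
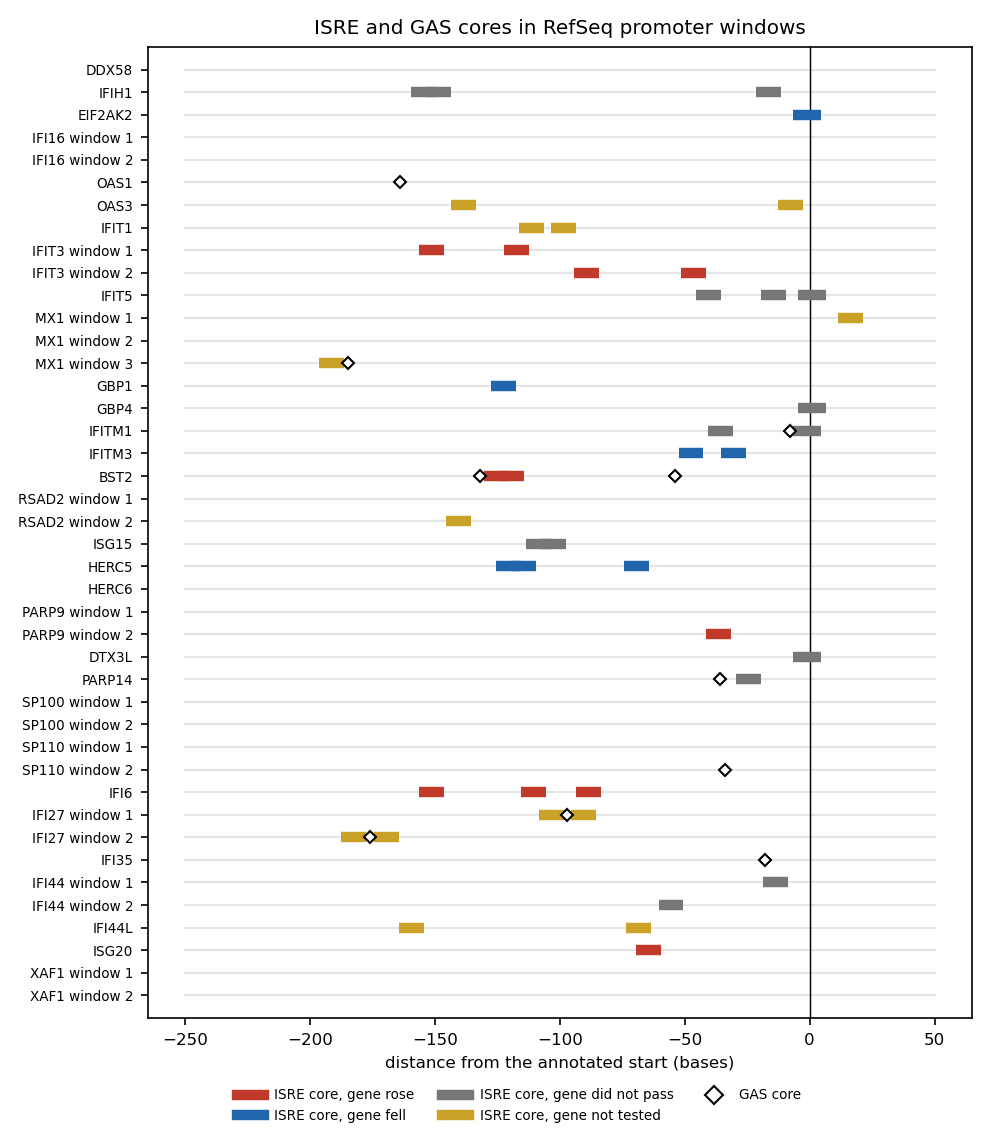
Position of ISRE cores (bars, coloured by the call of the gene) and GAS cores (diamonds) along each RefSeq promoter window, in bases from the annotated start at 0. A gene with several annotated starts has 1 line for each; bars of every colour occur, and 8 of the 31 matched genes have no ISRE core.

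The stretches around the cores are printed here because the same letters precede genes that moved in opposite directions. Each is given 5′ to 3′ in the direction of the gene and ends before the annotated start, with the ISRE core in capitals (read as TTTC, any 2 bases, TTTC where the core lies on the other strand). The first set belongs to genes that rose. IFI6 carried 3 cores and BST2 a pair that overlap.
IFI6, chr1:27672256-27672368, minus strand: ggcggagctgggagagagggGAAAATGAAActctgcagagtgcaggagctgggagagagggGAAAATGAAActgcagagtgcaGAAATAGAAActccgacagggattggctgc
IFIT3, chr10:89327821-89327904, plus strand: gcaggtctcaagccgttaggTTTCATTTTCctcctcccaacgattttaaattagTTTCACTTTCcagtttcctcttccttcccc
BST2, chr19:17405725-17405780, minus strand: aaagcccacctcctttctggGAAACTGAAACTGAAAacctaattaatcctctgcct
ISG20, chr15:88638927-88638976, plus strand: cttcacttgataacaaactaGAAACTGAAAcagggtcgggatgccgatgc
PARP9, chr3:122564312-122564361, minus strand: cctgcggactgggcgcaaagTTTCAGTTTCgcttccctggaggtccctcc
The core of PARP9 is, by its coordinates, also the core of DTX3L, the neighbouring gene on the opposite strand. The next set belongs to genes that fell, and HERC5 among them had 3 cores, as many as IFI6.
HERC5, chr4:88456974-88457074, plus strand: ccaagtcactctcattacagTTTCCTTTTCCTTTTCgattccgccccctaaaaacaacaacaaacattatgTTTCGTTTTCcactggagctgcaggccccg
IFITM3, chr11:320866-320932, minus strand: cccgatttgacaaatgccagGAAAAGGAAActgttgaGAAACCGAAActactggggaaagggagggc
GBP1, chr1:89065306-89065355, minus strand: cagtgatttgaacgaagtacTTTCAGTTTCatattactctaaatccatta
The last set holds 3 of the genes that did not pass and for which the library TPA replicate 1 lay below, and TPA replicate 2 above, the mean of the controls. IFIH1 and PARP14 also meet this and have a core wholly before the start, but are not shown.
ISG15, chr1:1013364-1013419, plus strand: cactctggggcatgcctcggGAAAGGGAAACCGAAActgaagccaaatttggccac
IFITM1, chr11:313980-314029, plus strand: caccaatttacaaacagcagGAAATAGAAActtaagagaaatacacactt
IFI44, chr1:78649751-78649788, plus strand: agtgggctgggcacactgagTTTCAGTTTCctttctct

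The sensors of foreign nucleic acid went different ways. DDX58, which encodes the RNA sensor RIG-I (9p21.1), had 3.52 and 3.46 RPKM in the controls and 4.45 and 6.66 RPKM with TPA. Both TPA values were above both controls, and the gene rose (log2 fold change 0.53 with SE 0.176, adjusted p = 0.0327 in limma). The call was lost without TPA replicate 2, where the fold change was 0.28, without control replicate 2, with no filter (adjusted p = 0.133) and at a threshold of 0.01. EIF2AK2, the gene of PKR, a kinase that stops translation when it binds double-stranded RNA (2p22.2), had 16.1 and 16.9 RPKM in the controls and 10.0 and 11.8 RPKM with TPA. It fell by 0.56 on the log2 scale (SE 0.139, adjusted p = 0.00905), a call lost without control replicate 2 (adjusted p = 0.0686). IFIH1, which encodes the RNA sensor MDA5, had 2.54 and 2.33 RPKM in the controls and 1.54 and 3.76 RPKM with TPA. The TPA libraries thus lay on opposite sides of the controls. IFI16, a nuclear DNA sensor gene, had the highest RPKM of the 40 genes, 102 to 128 in the controls and 114 to 127 with TPA, and its groups overlapped.

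The OAS genes encode enzymes that make 2'-5'-oligoadenylates, which activate RNase L. OAS1 had 1.17 and 1.79 RPKM in the controls, 1.19 RPKM in TPA replicate 1 and 6.90 RPKM in TPA replicate 2. Its neighbour OAS2 (both 12q24.13) had 16.2 and 18.2 RPKM in the controls, 17.9 RPKM in TPA replicate 1 and 35.5 RPKM in TPA replicate 2. In both genes TPA replicate 1 lay within the range of the controls and TPA replicate 2 alone stood apart. Neither passed (adjusted p = 0.219 and 0.132). OAS3 in the same band was listed at 0.421 and 0.436 RPKM in the controls and at 0.128 and 0.183 RPKM with TPA, and OASL, an OAS-like gene without the enzyme activity (12q24.31), at 0.025 and 0.026 RPKM and at 0.451 and 0.856 RPKM. Both were below the filter; when all genes with a value above 0 were fitted, OAS3 fell (adjusted p = 0.00861) and OASL rose (adjusted p = 0.0241). In that fit 19.2% of 20115 genes rose and 16.8% fell. Over all 40 genes, 17 had both TPA libraries above both controls and 8 below, against 36.6% and 29.9% of those 20115 genes.

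The IFIT genes, some of whose products bind foreign RNA ends and hinder its translation, lie together in 10q23.31. IFIT2 had 0.665 and 0.683 RPKM in the controls and 2.62 and 3.43 RPKM with TPA. It rose by 1.26 on the log2 scale (SE 0.144, adjusted p = 0.000171). IFIT3 had 2.73 and 2.20 RPKM in the controls and 5.36 and 8.45 RPKM with TPA, and rose by 1.17 (SE 0.199, adjusted p = 0.00144). Both genes were above both controls in each TPA library, and their calls held in all alternatives run for them. IFIT2 passed the filter only through the TPA libraries, so a difference was built into its passing. It was too low for the fit with a filter at 5 RPKM. IFIT5 had 7.31 and 8.13 RPKM in the controls and 5.33 and 7.15 RPKM with TPA. Its groups did not overlap, but the adjusted p was 0.169. IFIT1 was listed at 0.453 and 0.410 RPKM in the controls, 0.427 RPKM in TPA replicate 1 and 1.39 RPKM in TPA replicate 2, and was too low to test.

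The dynamin-like MX genes and the guanylate-binding protein (GBP) genes encode large GTPases of antiviral and antibacterial defence. GBP2 had the largest difference of the 40 genes. It was at 0.088 and 0.112 RPKM in the controls and at 12.5 and 21.8 RPKM with TPA, and rose by 3.99 on the log2 scale (SE 0.228, adjusted p = 3.96e-06). GBP2 passed the filter only through the TPA libraries, so a difference was built into its passing. The other GBP genes among the 40 lie in the same band, 1p22.2, and none of them rose. GBP1 had 3.74 and 2.29 RPKM in the controls and 0.859 and 1.16 RPKM with TPA, and fell by 0.98 on the log2 scale (SE 0.19, adjusted p = 0.00282). GBP4 had 4.23 and 2.67 RPKM in the controls and 1.90 and 2.43 RPKM with TPA and did not pass (adjusted p = 0.0622). GBP5 was listed at 0 in 3 libraries and at 0.011 RPKM in TPA replicate 1. MX2 (21q22.3) had 5.08 and 3.96 RPKM in the controls and 6.81 and 10.6 RPKM with TPA, and rose with a log2 fold change of 0.79 (adjusted p = 0.0111). It did not pass without TPA replicate 2, where the fold change was 0.51, with no filter (adjusted p = 0.0805) or at a threshold of 0.01. MX1, the neighbour of MX2 and a standard marker of an interferon response, was at 0.011 to 0.095 RPKM in the 4 libraries.

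Effectors at the membrane were also divided. BST2, the gene of tetherin, which holds budding virus at the cell surface (19p13.11), had 19.9 and 18.1 RPKM in the controls and 30.6 and 67.7 RPKM with TPA. It rose by 1.22 on the log2 scale (SE 0.312, adjusted p = 0.0104). TPA replicate 2 was 2.22 times TPA replicate 1, and the fold change was 0.66 without TPA replicate 2 and 1.78 without TPA replicate 1. With robust estimation, with no filter on low values and at a threshold of 0.01, BST2 did not pass. The 3 IFITM genes in 11p15.5 encode near-identical proteins that hinder virus entry, and how reads shared between such copies were counted is not given in the sources used here. IFITM3 had 18.6 and 16.6 RPKM in the controls and 5.07 and 8.78 RPKM with TPA, and fell by 1.27 on the log2 scale (SE 0.218, adjusted p = 0.00149). IFITM2, the highest of the 3, had 89.4 and 91.7 RPKM in the controls and 64.8 and 87.6 RPKM with TPA and did not pass (adjusted p = 0.215). IFITM1 had 19.9 and 21.6 RPKM in the controls but 15.1 RPKM in TPA replicate 1 and 29.7 RPKM in TPA replicate 2, one below and one above both controls. RSAD2, the gene of the radical enzyme viperin, showed the same arrangement at a low level, with 0.747 and 0.656 RPKM in the controls, 0.248 RPKM in TPA replicate 1 and 1.10 RPKM in TPA replicate 2.

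ISG15 encodes a ubiquitin-like protein, HERC5 the ligase that attaches it to target proteins and USP18 the protease that removes it. HERC5 (4q22.1) had the largest fall of the 40 genes. It had 15.8 and 20.7 RPKM in the controls and 1.09 and 2.37 RPKM with TPA, a mean 10.6-fold lower in RPKM, and fell by 2.85 on the log2 scale (SE 0.234, adjusted p = 2.72e-05). The modifier itself did not follow its ligase. ISG15 (1p36.33) had 32.8 and 28.3 RPKM in the controls, 29.8 RPKM in TPA replicate 1 and 46.8 RPKM in TPA replicate 2 (adjusted p = 0.278). USP18 was at 0.358 and 0.292 RPKM in the controls and at 0.194 and 0.553 RPKM with TPA, and HERC6, next to HERC5, at 0.093 to 0.254 RPKM in the 4 libraries. The activating and conjugating enzyme genes of the same pathway, UBA7 and UBE2L6, did not pass either (adjusted p = 0.0667 and 0.716).

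PARP9, DTX3L and PARP14 lie in 3q21.1; the products of PARP9 and DTX3L form a complex that modifies histones and ubiquitin, and PARP14 is an ADP-ribosyltransferase. PARP9 had 10.1 and 10.3 RPKM in the controls and 12.1 and 19.4 RPKM with TPA, and rose just past the threshold (log2 fold change 0.54, adjusted p = 0.0493). The call was lost in 6 of 14 alternatives. DTX3L, which shares the promoter stretch printed for PARP9, had 25.1 RPKM in both controls, 19.2 RPKM in TPA replicate 1 and 27.1 RPKM in TPA replicate 2. PARP14 had 13.1 and 13.3 RPKM in the controls, 11.1 RPKM in TPA replicate 1 and 14.9 RPKM in TPA replicate 2. For both genes, too, the TPA libraries were on opposite sides of the controls.

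PML, SP100 and SP110 encode proteins of nuclear bodies. PML (15q24.1) had 10.5 and 7.71 RPKM in the controls and 13.2 RPKM in both TPA libraries, and rose by 0.50 on the log2 scale (SE 0.161, adjusted p = 0.0272). It was the only tested gene of the 30 that was not higher in TPA replicate 2 than in TPA replicate 1. Its call was lost in 5 of 14 alternatives, among them leaving out either TPA library or control replicate 2. SP100 had 7.33 and 6.87 RPKM in the controls and 8.15 and 11.6 RPKM with TPA and did not pass (adjusted p = 0.0750). SP110 had 6.31 and 5.16 RPKM in the controls and 6.28 and 7.74 RPKM with TPA, with overlapping groups.

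Among the remaining interferon-stimulated genes, IFI6 (1p35.3), which encodes a small membrane protein that protects cells from apoptosis and hinders some viruses, rose most. It had 2.03 and 1.85 RPKM in the controls and 13.2 and 16.7 RPKM with TPA, and rose by 2.43 on the log2 scale (SE 0.151, adjusted p = 6.05e-06). The TPA libraries of IFI6 differed by 1.27-fold, less than those of most other genes here. ISG20, an exonuclease gene (15q26.1), had 2.69 and 2.04 RPKM in the controls and 4.59 and 7.65 RPKM with TPA and rose by 1.06 (SE 0.214, adjusted p = 0.00356). IFI35 had 6.19 and 5.53 RPKM in the controls and 7.17 and 11.1 RPKM with TPA (log2 fold change 0.54, adjusted p = 0.0431), a call lost without TPA replicate 2, without control replicate 2, with no filter (adjusted p = 0.154) and at a threshold of 0.01. XAF1, the gene of an antagonist of the apoptosis inhibitor XIAP, had 2.66 and 2.62 RPKM in the controls, 3.02 RPKM in TPA replicate 1 and 6.91 RPKM in TPA replicate 2, and did not pass (adjusted p = 0.0833). IFI44 had 3.22 and 3.67 RPKM in the controls, 2.20 RPKM in TPA replicate 1 and 6.72 RPKM in TPA replicate 2. The neighbouring IFI44L was at 0.181, 0.141 and 0.185 RPKM and reached 1.36 RPKM in TPA replicate 2 alone. IFI27 stayed between 0.044 and 0.282 RPKM.

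**Figure D3:**
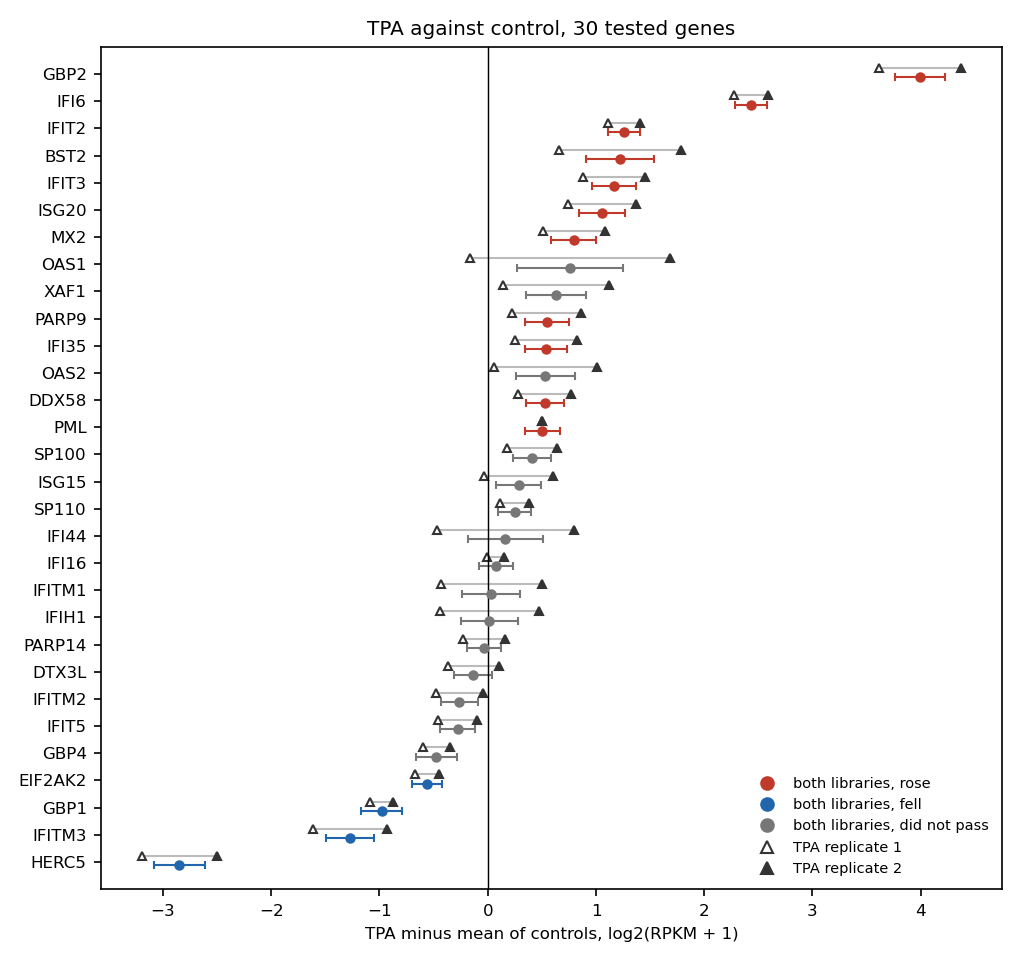
TPA minus the mean of the 2 controls on the log2(RPKM + 1) scale for the 30 genes tested. Circles with bars are the log2 fold change ± SE from limma, coloured by call; triangles are the difference of TPA replicate 1 (open) and TPA replicate 2 (filled). From GBP2 at 3.99 to HERC5 at -2.85, the filled triangle lies to the right of the open one in all genes but PML.

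The replicates of the 2 groups agreed to different degrees. In control, 14 of the 30 tested genes were higher in replicate 2 than in replicate 1, with a median difference of -0.0192 on the log2 scale, and none differed by over 1.5-fold on the RPKM + 1 scale. Over all genes tested these values were 60.8%, 0.049 and 1.72%. With TPA, 29 of 30 were higher in replicate 2, with a median difference of 0.57, and 13 of 30 (43.3%) differed by over 1.5-fold. Over all genes tested, 73.1% were higher in TPA replicate 2, with a median of 0.13, and 3.93% differed by over 1.5-fold. After median-of-ratios scaling the share of all genes that were higher in TPA replicate 2 was 53.9%, while it was still 29 of the 30. Quantile normalization gave 28 of 30, against 52.7% of all genes. Among all 40 genes, 38 were higher in TPA replicate 2 and 18 in control replicate 2.

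Ranked by the difference between the TPA libraries, 16 of the 30 genes were among the top 5% of all genes tested. OAS1 was at rank 2 of 12159, IFI44 at rank 12 and BST2 at rank 24, with XAF1, OAS2 and IFITM1 at ranks 47, 49 and 51. IFI6, IFIT2, GBP1, EIF2AK2, IFI16 and PML were among the 14 outside it. Set against the 2 controls, TPA replicate 1 was above both for 13 of the 30 genes and below both for 12, while TPA replicate 2 was above both for 22 and below both for 7. For all genes tested the shares were 41.0% above and 50.6% below in TPA replicate 1, and 48.0% and 43.3% in TPA replicate 2. In 5 of the 30 (16.7%; IFIH1, IFITM1, DTX3L, PARP14 and IFI44) TPA replicate 1 was below and TPA replicate 2 above both controls, against 4.42% of all genes tested. IFIH1, IFITM1 and IFI44 fell when TPA replicate 2 was left out, by 0.44, 0.43 and 0.47 on the log2 scale, and rose when TPA replicate 1 was left out, by 0.47, 0.50 and 0.80.

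**Figure D4:**
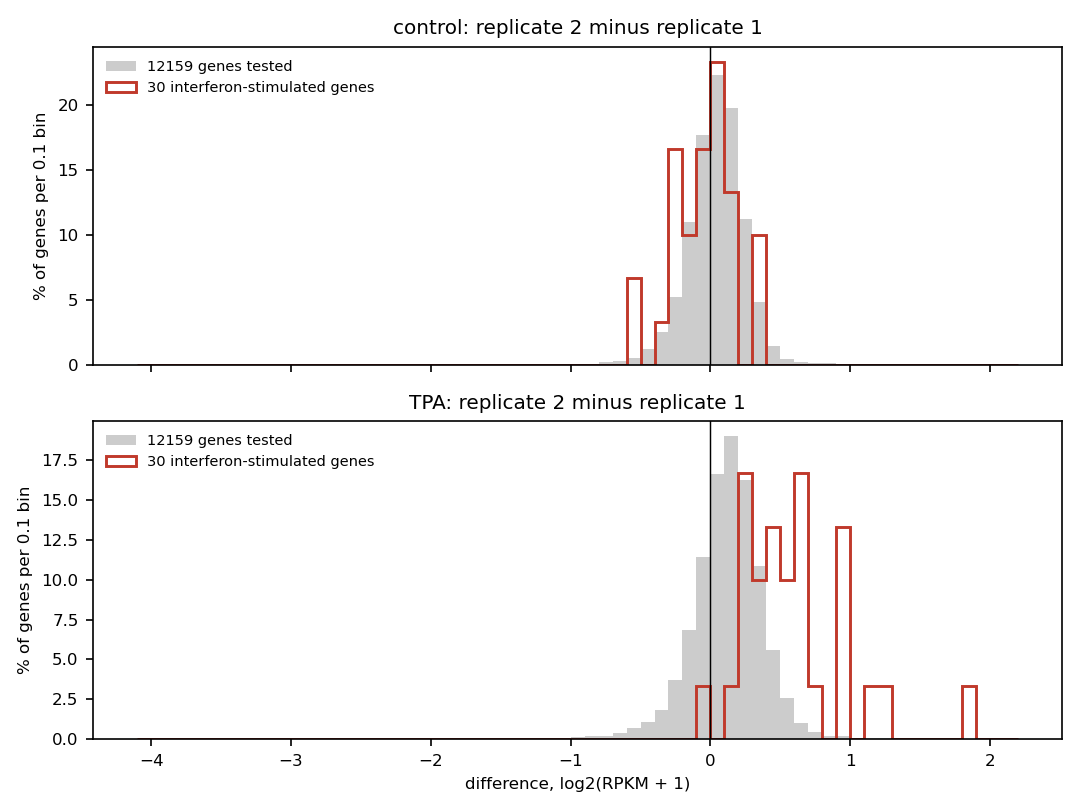
Replicate 2 minus replicate 1 on the log2(RPKM + 1) scale in control (top) and TPA (bottom), as the percentage of genes per bin, for all 12159 genes tested (grey) and the 30 interferon-stimulated genes tested (red line). The red line overlaps the grey bars in both groups and is shifted to the right with TPA, where the medians are 0.57 (red) and 0.13 (grey).

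Other measures differed between the TPA libraries as well. Of the 14 B-lineage markers, 12 (85.7%) were higher in TPA replicate 2, against 73.1% of all genes tested. VPREB1, a pre-B-cell receptor gene, was at 7.12 RPKM in TPA replicate 1 and 20.2 RPKM in TPA replicate 2, against 338 and 356 RPKM in the controls, and DNTT, the terminal transferase gene, at 14.6 and 37.4 RPKM against 775 and 803 RPKM. The summed RPKM of the 40 interferon-stimulated genes was 454 and 474 in the controls and 433 and 639 with TPA. Summed marker levels were 9.58 and 9.67 RPKM with TPA for T cells (0.031 and 0.059 in control), nearly all of it from IL2RA, and 3.17 and 3.96 RPKM for myeloid cells (0.673 and 1.02 in control), most of it from CSF1R. They were 9.24 and 6.42 RPKM for plasmacytoid dendritic cells (0.027 and 0.022 in control), most of it from GZMB, and 14.4 and 13.8 RPKM for natural killer cells (13.5 and 12.9 in control). Within that last sum NKG7 fell to 7.37 and 6.62 RPKM with TPA and PRF1 rose from 0.0605 to 6.91 RPKM (group means). The part of these differences in the values of the interferon-stimulated genes was not tested.

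Control and TPA values were separate for 20 of the 30 genes: 13 (43.3%) had both TPA libraries above both controls, against 38.8% of all genes tested, and 7 (23.3%) had both below, against 41.0%. SP100 and XAF1 were above without passing the test, and IFIT5, GBP4 and IFITM2 below. The calls of GBP2, IFI6, IFIT2, IFIT3, ISG20, HERC5, IFITM3 and GBP1 were the same in every alternative run for them. For GBP2 and IFIT2 a difference was built into passing the filter.

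No interferon gene reached 1 RPKM. Of 21 genes of type I, II and III interferons, 11 were listed at 0 in all 4 libraries, and the highest value was 0.846 RPKM, for IFNW1 in control replicate 2. IFNB1, the interferon-beta gene, was at 0.174 and 0.205 RPKM in the controls and at 0.152 and 0.082 RPKM with TPA. IFNG was listed at 0 in the controls and at 0.018 and 0.019 RPKM with TPA.

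The receptor and signalling genes of the pathway were present in both groups, and several were higher with TPA. Of 9 receptor subunit and JAK kinase genes, 5 rose (55.6%, against 28.4% of all genes tested) and 4 did not pass, with a median log2 fold change of 0.52. Without control replicate 1 only 3 rose, as IFNGR2 and JAK1 did not pass. IFNGR1, which encodes the ligand-binding chain of the interferon-gamma receptor, rose from 9.88 ± 1.94 to 57.6 ± 5.99 RPKM (mean ± SD, n = 2 libraries per group, as in what follows), with an adjusted p of 9.67e-06. IL10RB, the gene of a chain shared by the receptors of lambda interferons and interleukin-10, rose from 8.86 ± 1.18 to 23.1 ± 2.46 RPKM and IFNAR1 from 8.48 ± 0.318 to 15.8 ± 0.0177 RPKM. IFNGR2 and JAK1 rose by log2 fold changes of 0.59 and 0.52. IFNAR2 (adjusted p = 0.0508), JAK2 and TYK2 were among those that did not pass.

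Of 10 STAT and IRF factor genes, 9 were tested. Of these, 7 rose (77.8%, against 28.4% of all genes tested) and 2 did not pass. Their median log2 fold change was 0.90, against -0.02 for all genes tested. IRF9 rose from 3.43 ± 0.442 to 20.1 ± 6.47 RPKM (2.22 on the log2 scale, SE 0.21, adjusted p = 5.79e-05) and STAT2 from 3.99 ± 0.156 to 19.0 ± 2.53 RPKM (1.99, SE 0.143, adjusted p = 1.27e-05). IRF7, which amplifies interferon production, had 2.36 and 2.51 RPKM in the controls and 3.92 and 7.09 RPKM with TPA, and rose with a log2 fold change of 0.88. With no filter its adjusted p was 0.0835, and without TPA replicate 2 the fold change was 0.52. IRF7 and IRF9 were thus higher in TPA replicate 2 than in TPA replicate 1, by 1.81- and 1.59-fold. The lymphoid factors IRF4 and IRF8 rose with log2 fold changes of 1.57 and 1.65 and IRF3, which answers nucleic acid sensors, with 0.35 (adjusted p = 0.0463), though IRF3 did not pass when any 1 library was left out. IRF1, with 22.6 and 21.4 RPKM in the controls and 18.1 and 25.9 RPKM with TPA, did not pass, and IRF5 was at most at 0.045 RPKM.

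Of 20 genes of sensors and adaptors outside the 40, 16 were tested, 5 rose (31.2%), 5 fell (31.2%) and 6 did not pass, shares near the 28.4% and 29.8% of all genes tested. TMEM173, the gene of the adaptor STING, rose from 2.64 ± 0.672 to 44.1 ± 2.85 RPKM (log2 fold change 3.64, adjusted p = 1.20e-06), whereas MB21D1, the gene of the DNA sensor cGAS upstream of it, fell from 6.22 ± 0.537 to 1.65 ± 0.0898 RPKM (adjusted p = 4.84e-05). TLR9, an endosomal DNA receptor gene, rose from 0.345 ± 0.0877 to 8.89 ± 3.03 RPKM, but passed the filter only through the TPA libraries, so its difference was built in. UNC93B1, which carries such receptors to endosomes, fell from 9.21 ± 1.31 to 2.90 ± 0.294 RPKM. The kinase gene IKBKE rose and the adaptor gene TRAF3 fell, with log2 fold changes of 1.48 and -1.01. Of 8 genes of negative regulators, 7 were tested, with 2 that rose (SOCS1 and PTPN6), 2 that fell (PTPN2 and PTPN11) and 3 that did not pass. The 28.6% in each direction are near the shares of all genes. None fell without control replicate 2, and PTPN2 did not pass with no filter (adjusted p = 0.0752) or without control replicate 1 or TPA replicate 1. SOCS3 was listed at 0 in 3 libraries.

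A further list of 52 interferon-stimulated genes held 37 that were tested, of which 16 rose, 5 fell and 16 did not pass, with a median log2 fold change of 0.37. WARS, the tryptophanyl-tRNA synthetase gene, rose from 30.9 ± 1.32 to 144 ± 6.92 RPKM, TRIM38 from 5.77 ± 0.118 to 26.1 ± 0.288 RPKM and GBP3, which lies in the same band as GBP2 and, like it, is a GTPase gene, from 1.61 ± 0.00707 to 8.90 ± 0.464 RPKM. SAMHD1, a nucleotide triphosphatase gene, fell from 14.3 ± 0.487 to 3.14 ± 0.682 RPKM, CMPK2, the neighbour of RSAD2, from 2.45 ± 0.401 to 0.412 ± 0.277 RPKM (it passed the filter only through the controls) and PNPT1, an RNA-degrading enzyme gene of mitochondria, from 24.0 ± 4.36 to 11.3 ± 1.63 RPKM. The chemokine genes CXCL9 and CXCL10 were listed at 0 in all 4 libraries. Of these 37 genes, 30 (81.1%) were higher in TPA replicate 2 than in TPA replicate 1, against 73.1% of all genes tested. In control, 15 (40.5%) were higher in replicate 2 than in replicate 1, against 60.8%. The median differences were 0.32 with TPA and -0.0305 in control, against 0.13 and 0.049 for all genes tested. Over the 6 pathway lists together, 78 of 120 genes were tested, 35 rose (44.9%) and 12 fell (15.4%), against the 28.4% and 29.8% of all genes.

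**Figure D5:**
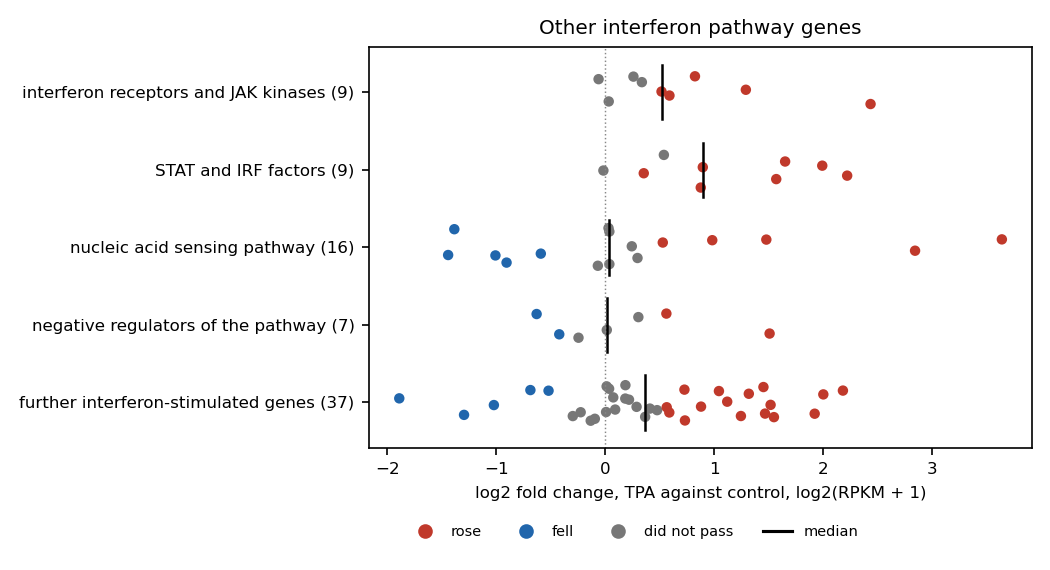
Log2 fold change (TPA against control, log2(RPKM + 1)) of tested interferon pathway genes outside the 40, by list, with the number tested in parentheses, coloured by call; the black line is the list's median. The STAT and IRF factors have the highest median, 0.90, and no gene of that list or of the receptor list fell.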

How the data were processed

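The 4 RNA libraries (2 control, 2 TPA) were grouped by their titles. Per the file headers, the authors' values are RPKM, deposited as 1 table of genes by libraries, which names 1 RefSeq accession for each gene (those of IFITM3, XAF1 and IFI44 have the non-coding prefix NR). The submitters' processing notes name CASAVA 1.8, Bowtie 1.12, TopHat, SAMtools, HOMER and the build hg19; the use of strand and of reads that map to several genes is not given in the sources used here. Absolute depth is unknown, so no counting interval is given.

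Genes that reached 1 RPKM in 2 or more libraries were fitted as log2(RPKM + 1), which understates the change of low genes, with R 4.3.3 and limma 3.58.1 (trended prior; 5.88 prior degrees of freedom beside 2 residual ones) without scaling. P-values are two-sided and adjusted by Benjamini-Hochberg over all genes tested. An exact permutation test of 2 against 2 cannot go below 0.333 and was not used. Relative depth came from the commonest ratio between libraries of values from 0.03 to 0.15 RPKM. On simulated data for this comparison with 12159 genes, 96 of 100 genes changed by 1 on the log2 scale and 100 of 100 changed by 2 were recovered, with 9 calls among 11959 unchanged genes. The changes were placed only in genes above about 5 RPKM in control, with the same independent noise in both groups. Few genes were changed, whereas 58.2% of genes were called in the data. These rates do not carry over to lower genes or to differences that many genes share between the TPA libraries. Figures were drawn with matplotlib 3.10.9.

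The members, role groups and pathway lists were chosen with earlier results of these data known. Named pathway genes are a fixed set of receptors, kinases and factors and, per list, the 3 with the smallest p in each direction; others (IFNB1, IFNG, IFNW1, UBA7, UBE2L6, CXCL9, CXCL10 and the markers) were chosen after their values were seen. Promoter stretches shown are those of called genes with a core wholly before the start, plus 3 genes that did not pass. Other settings run were each library left out, the replicate number as a block, a threshold of 0.01, robust estimation, a prior without trend, quantile normalization, scaling by median of ratios, filters of 5 RPKM or none, pseudocounts of 0.5 and 0.1, and a longer ISRE motif. Values of some pathway and marker genes are not reported here.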

Additional observations from a re-analysis of the deposited data

How the results depend on the processing

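With an adjusted p threshold of 0.01, 5 interferon-stimulated genes rose, and 6 rose with no filter on low values, where 20115 genes were tested. In the fits without each library in turn, the number that rose ranged from 6 to 18 and the number that fell from 4 to 9, the median log2 fold change from 0.026 to 0.62, and the tested genes with both TPA libraries above both controls from 13 to 22 and below from 7 to 12. A group left with 1 library was assumed to vary like the other, and with a control replicate left out limma estimated infinite prior degrees of freedom, so those p-values cannot be set against the others. All other alternatives left the counts of interferon-stimulated genes, and of genes over the 6 pathway lists together, that rose or fell within 1.5 times. Single lists moved more. Without control replicate 1, 3 receptor and kinase genes rose. Among negative regulators 1 rose with a filter at 5 RPKM, none fell without control replicate 2, and 1 fell with no filter, at 0.01, without control replicate 1 and without TPA replicate 1. Of the further interferon-stimulated genes, 3 fell at 0.01, without control replicate 2 and without TPA replicate 1. With CT added to the motif the number of genes with an ISRE fell from 23 to 15. No label pairs the replicates; across genes, the difference between replicates in control and with TPA had a correlation of 0.361, and with the replicate number as a block 14 interferon-stimulated genes rose and 4 fell. Directions turned for genes that did not pass. IFIH1 (0.0156) was -0.0135 with a pseudocount of 0.1, -0.0098 after median-of-ratios scaling and -0.12 after quantile normalization, and IRF1 (-0.0172) was 0.0295 after quantile normalization. With 1 library left out, the log2 fold change ranged from -0.44 to 0.47 for IFIH1, -0.0869 to 0.23 for IFI16, -0.165 to 1.68 for OAS1, -0.43 to 0.50 for IFITM1, -0.0314 to 0.60 for ISG15, -0.37 to 0.10 for DTX3L, -0.23 to 0.16 for PARP14, -0.47 to 0.80 for IFI44, -0.13 to 0.0079 for JAK2, -0.0665 to 0.13 for TYK2 and -0.26 to 0.23 for IRF1. The cause was not tested. The depth behind values under 1 RPKM is unknown.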
